A study of Saccharomyces cerevisiae with 11 samples.

Results

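Cbp20 peaks that lie on protein-coding genes of the budding yeast Saccharomyces cerevisiae and share no base with an Rnt1 peak are described here. A peak of Cbp20 replicate 1 was taken when it overlapped by at least 1 bp a peak of Cbp20 replicate 2 and a protein-coding gene of the R64 assembly, and when it overlapped no peak of either Rnt1 replicate and no tRNA, snoRNA or snRNA gene. The rule selected 1762 of the 3801 Cbp20 peaks of replicate 1 (46.4%), and these are called Rnt1-free peaks. They cover 1028858 bp, or 8.52% of the nuclear genome. The peaks were thus chosen by the measured positions of all 4 peak lists, and the absence of Rnt1, the presence of a replicate and the overlap with a coding gene are what chose them and not findings.

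ChIP-seq sequences the DNA that crosslinks to a protein and is precipitated with it, here through a myc tag on the protein. The series holds 11 samples, of which the 4 ChIP-seq peak lists were used here and the 7 of RNA-seq were not. The Rnt1-free peaks come from the 2 lists labelled Cbp20-myc, whose listed genotype carries CBP80-myc13::NAT, the tag on the partner subunit of Cbp20. They were set against the 2 lists labelled Rnt1-myc, from a strain with RNT1-myc13::NAT. Both strains are MATa with the alleles his3delta_1, leu2delta_0, met15delta_0 and ura3delta_0, and both were grown in YPD at 30 °C. No untagged strain was used here. Every list gives the chromosome, start and end of each peak and no height, score or count, and the depth of the libraries is unknown. The study states that experiments were biologically replicated unless noted, and that several immunoprecipitations were pooled for a ChIP-seq library, while the labels do not say which cultures the replicates came from. The lists hold positions alone and also chose the peaks, so no test between conditions was made, all values below are descriptions, and every percentage over peaks or genes describes these lists alone.

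Cbp20 and Cbp80 form the nuclear cap-binding complex, which binds the cap of a transcript soon after RNA polymerase II has started and travels with the elongating polymerase. In ChIP it is therefore known to be found over the body of transcribed genes. Rnt1 is the yeast RNase III, an endonuclease best known for cutting precursors of ribosomal RNA, snRNA and snoRNA at hairpins capped by a loop of the sequence AGNN. Coding genes make up most of what polymerase II transcribes in yeast, and few of their transcripts are known Rnt1 substrates.

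The smallest regions that met the rule are the narrowest calls of replicate 1 and do not give the extent of Cbp20 on the gene. The 5 narrowest Rnt1-free peaks were all 146 bp wide, the lowest width present, and each lay wholly under a wider replicate 2 peak. They are printed whole, on the coding strand of the gene, because they are the shortest stretches called in replicate 1. YML082W also carried other Rnt1-free peaks. Capitals mark the stop codon where it lies in the peak.

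RTS3 (chrVII:808801-808946, minus strand): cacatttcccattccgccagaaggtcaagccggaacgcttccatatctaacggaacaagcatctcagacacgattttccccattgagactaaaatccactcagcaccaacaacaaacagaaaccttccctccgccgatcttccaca
TOA2 (chrXI:330413-330558, plus strand): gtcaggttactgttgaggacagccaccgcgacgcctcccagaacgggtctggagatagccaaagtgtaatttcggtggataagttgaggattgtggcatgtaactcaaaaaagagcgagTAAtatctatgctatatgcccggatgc
YML082W (chrXIII:102154-102299, plus strand): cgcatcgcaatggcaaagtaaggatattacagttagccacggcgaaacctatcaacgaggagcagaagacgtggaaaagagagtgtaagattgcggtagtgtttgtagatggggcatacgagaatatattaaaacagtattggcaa
SLD7 (chrXV:440783-440928, minus strand): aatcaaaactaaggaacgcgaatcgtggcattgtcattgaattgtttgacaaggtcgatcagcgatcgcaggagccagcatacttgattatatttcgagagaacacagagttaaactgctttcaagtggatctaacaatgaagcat
YRF1-8 (chrXV:1089310-1089455, plus strand): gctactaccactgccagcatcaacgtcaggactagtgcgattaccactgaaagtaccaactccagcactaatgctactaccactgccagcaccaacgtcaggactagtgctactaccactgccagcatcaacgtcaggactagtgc

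TOA2 encodes the small subunit of the general factor TFIIA and SLD7 a protein of replication initiation. In TOA2 the peak ran over the stop codon and had 122 bp in the gene, whose length is 369 bp. In RTS3, YML082W, SLD7 and YRF1-8 it lay wholly inside the gene, with its centre at 69.1%, 18.7%, 39.8% and 72.5% of the way from start to stop. The matching replicate 2 peaks were 385 bp wide in RTS3, 303 bp in TOA2, 239 bp in YML082W, 345 bp in SLD7 and 703 bp in YRF1-8. YRF1-8 is one of the near-identical Y′ helicase genes of the chromosome ends, so its peak depends on how reads of repeats were placed and is uncertain. The GC content of these 5 peaks ran between 40.4% (SLD7) and 52.1% (YRF1-8).

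Rnt1-free peaks were mostly short and lay inside the open reading frame. Their median width was 461.5 bp in replicate 1, with a range of 146 to 2904 bp, and 458.5 bp for the matching replicate 2 peaks. The 1028 peaks that met every other part of the rule but shared bases with an Rnt1 peak (peaks with Rnt1) had medians of 1279.5 bp in replicate 1 and 1137.5 bp in replicate 2. Of these 1028, 606 met both Rnt1 lists, 403 the list of Rnt1 replicate 2 alone and 19 that of Rnt1 replicate 1 alone. A wider peak has more bases on which an Rnt1 peak can fall, so width is not independent of the rule. Of replicated coding-gene peaks under 300 bp, 91.1% were free of Rnt1, and the share was 88.6% from 300 to under 500 bp, 69.8% from 500 to under 1000 bp, 37.2% from 1000 to under 1500 bp and 15.9% at 1500 bp or more. In all, 245 Rnt1-free peaks (13.9%) were over 1000 bp wide, against 675 peaks with Rnt1 (65.7%).

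**Figure D1:**
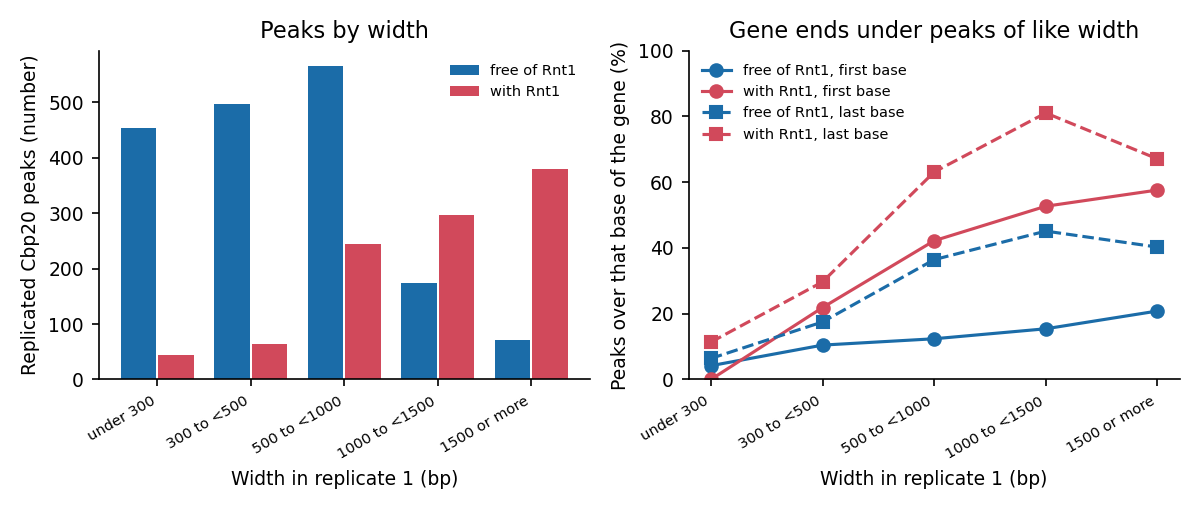
Left, number of replicated Cbp20 peaks on coding genes (vertical axis) by width in replicate 1 (horizontal axis, bp), free of Rnt1 in blue and with Rnt1 in red. Right, percent of the same peaks that cover the first base (circles, solid lines) or the last base (squares, dashed lines) of the gene; from 500 to under 1000 bp the last base lay under 36.5% of Rnt1-free peaks and 63.1% of peaks with Rnt1.

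The widest Rnt1-free peaks filled nearly the whole reading frame of long genes, apart from a peak that spanned neighbouring genes. The widest, 2904 bp, lay on SEC26, which encodes the β subunit of the COPI vesicle coat, and covered 99.4% of the gene in replicate 1 against 79.5% in replicate 2, where it was split into separate peaks. UTP21, a gene of the small-subunit processome that assembles ribosomes, had a peak of 2660 bp in replicate 1 and 2529 bp in replicate 2, which covered 94.3% and 89.7% of the gene. PTA1, of the cleavage and polyadenylation factor, had 2239 bp and 2327 bp, and PRP43, a helicase of splicing and ribosome assembly, 2152 bp and 2124 bp. These genes were covered to a like extent in both replicates, with SEC26 as the exception. A peak of 2206 bp, wider than that on PRP43, spanned PRO1, which encodes the first enzyme of proline synthesis, and its neighbour BFR2. The best matching replicate 2 peak was 1153 bp wide.

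Ranked by bases under Rnt1-free peaks in both replicates, the 10 leading genes were UTP21, SEC26, PHO90, PTA1, PRP43, SPT5, ALR1, STT3, CCR4 and GUS1. PHO90, a phosphate transporter, had 2255 bp in 2 peaks, and SPT5, an elongation factor of polymerase II, 2056 bp in 3 peaks. ALR1, a magnesium transporter, had 2044 bp, STT3, the catalytic subunit of oligosaccharyltransferase, 2027 bp, CCR4, a deadenylase, 1997 bp and GUS1, the glutamyl-tRNA synthetase, 1944 bp. The replicates differed by under 10 percentage points in the share of the gene covered by Cbp20 peaks of any kind for 9 of these 10 genes, SEC26 being the exception. No Rnt1 peak of either list touched any of the 10.

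In replicate 1, some long genes carried a row of separate Rnt1-free peaks in place of a single one. Of 1562 genes with an Rnt1-free peak, 1278 had 1, 240 had 2, 38 had 3 and 6 had 4. Of those with 4, 5 were named by the rule for named genes: KIC1, a protein kinase of cell morphogenesis, MHP1, a microtubule-associated protein, UTP10, of the small-subunit processome, CDC16, of the anaphase-promoting complex, and TGL4, a triacylglycerol lipase. In UTP10 the peaks of replicate 1 began 307, 643, 1708 and 2227 bp from the start codon and the last ended at 2683 bp, in a gene of 5310 bp, so the 3′ part of the gene was bare. In KIC1 they ran between 499 and 3198 bp of a gene of 3243 bp. The replicates covered 71.8% and 65.1% of KIC1, 40.1% and 48.5% of MHP1, 35.5% and 28.9% of UTP10, 55.6% and 62.5% of CDC16, and 51.7% and 47.0% of TGL4. Each replicate had 4 separate peaks on KIC1 and on UTP10, but their edges differed between replicates. In MHP1 all 4 had the same best matching replicate 2 peak, so the row was split in replicate 1 only. In KIC1, UTP10, CDC16 and TGL4, 2 of the 4 shared a best matching replicate 2 peak.

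**Figure D2:**
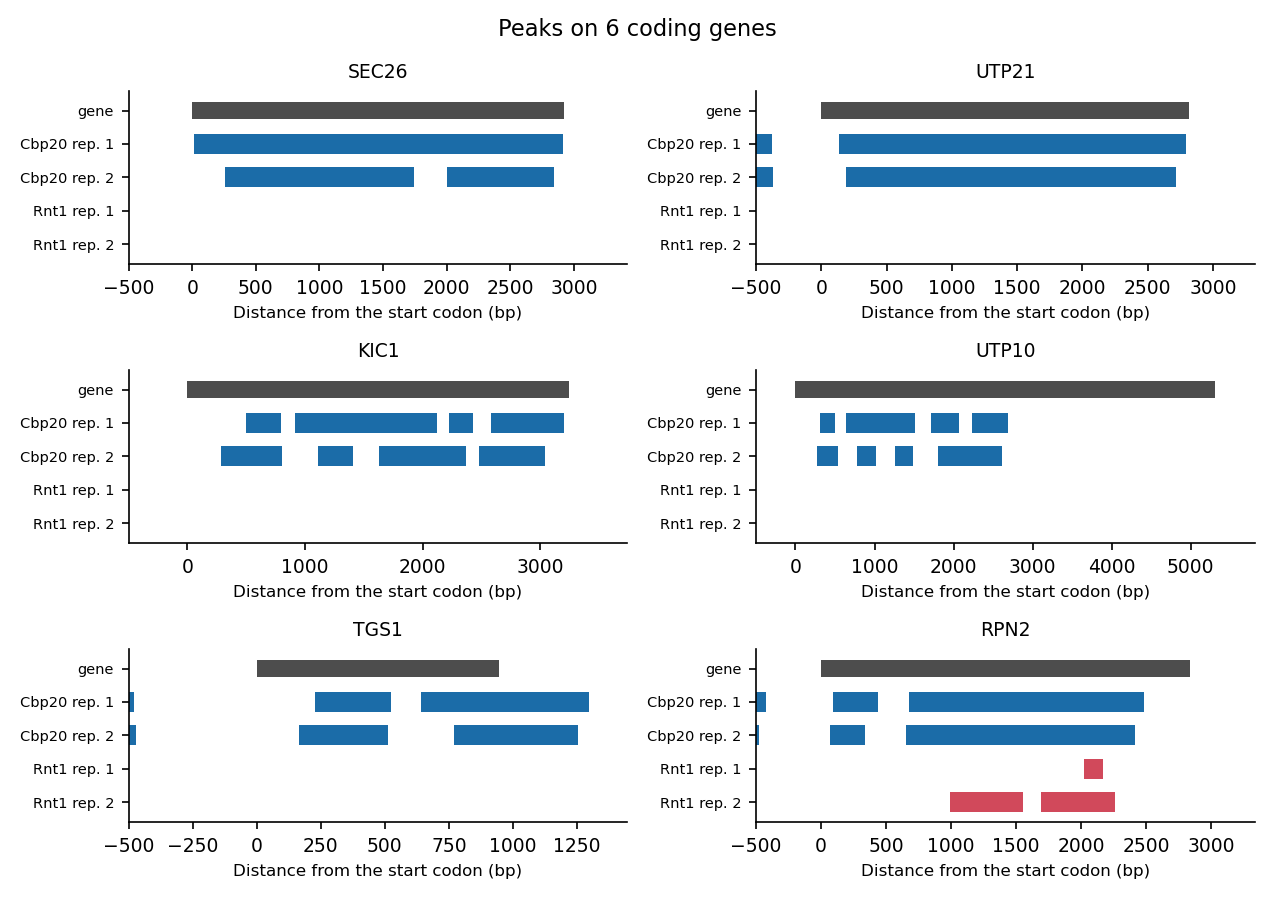
Extent of peaks (bars) of the Cbp20 lists (blue) and Rnt1 lists (red) on 6 coding genes (grey), with distance from the start codon in bp on the horizontal axis and 1 row per list. SEC26 and UTP21 had long Rnt1-free peaks, KIC1 and UTP10 had 4 each in replicate 1, TGS1 had 2, and RPN2 had 1 at its 5′ end, upstream of a wider Cbp20 peak that shares bases with Rnt1.

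Along the gene, Rnt1-free peaks spared the start codon more often than the stop codon. Their centre lay at a median of 52.7% of the gene in replicate 1 and 51.5% in replicate 2, with the middle 50% of centres between 29.5% and 73.9% in replicate 1. The first base of the gene lay under 183 of them (10.4%) in replicate 1 and 153 (8.68%) in replicate 2. The last base lay under 430 (24.4%, exact 95% binomial interval 22.4 to 26.5) in replicate 1 and 310 (17.6%) in replicate 2, and under 15% when peaks were taken from replicate 2 alone. Such intervals cover counting error only and treat peaks as independent. Neither end was covered by 1199 peaks (68.0%) in replicate 1 and 1335 (75.8%) in replicate 2. Where the first base was covered, the peak reached a median of 37 bp upstream of it, and where the last base was covered, 99 bp past it.

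Coverage over genes showed the same layout without reference to single peaks. Among the 1298 genes of at least 500 bp that carried only Rnt1-free peaks, the share with a Cbp20 peak in the 50 bp before the start codon was 7.86% in replicate 1 and 5.24% in replicate 2. It was 21.4% and 20.5% in the first twentieth of the gene, and highest, at 61.2% in replicate 1, between 80% and 85% of the gene. In the last twentieth it was 40.4% in replicate 1 and 30.1% in replicate 2, and 27.5% and 16.2% in the 50 bp after the stop codon. Replicate 2 was thus lower than replicate 1 just past the stop codon and close to it in the gene body. In the 953 genes that carried only peaks with Rnt1, the share was 35.5% in the 50 bp before the start codon in replicate 1 and 69.99% in the 50 bp after the stop codon.

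**Figure D3:**
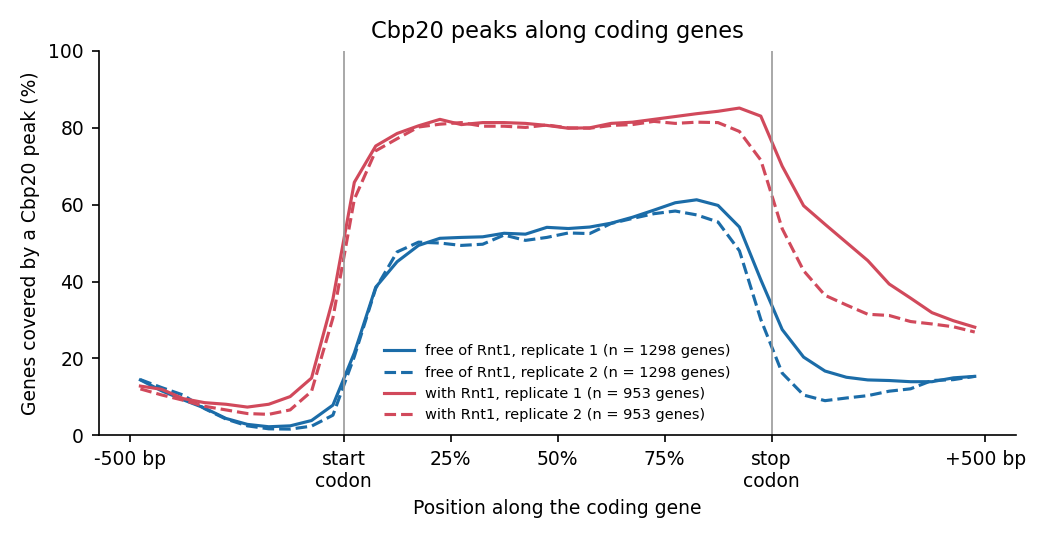
Percent of genes with a Cbp20 peak (vertical axis) at each position from 500 bp before the start codon to 500 bp after the stop codon (horizontal axis, the gene scaled to 20 equal parts), for genes with Rnt1-free peaks only (blue) and with Rnt1-sharing peaks only (red), replicate 1 solid and replicate 2 dashed. Both kinds are lowest upstream of the start codon, and the blue lines reach 61.2% at most.

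Gene ends were less often under Rnt1-free peaks than under peaks with Rnt1, by an amount that varied with width and gene length. The rule split these kinds by where Rnt1 peaks lie, so their position along the gene is not independent of it. The gap describes that split and is no separate finding. The first base lay under 10.4% of Rnt1-free peaks and 47.9% of peaks with Rnt1 in replicate 1, and the last base under 24.4% and 65.5%. Peaks that met only 1 Rnt1 list (422) lay closer to Rnt1-free peaks, with the first base under 25.4% and the last under 45.5%. For the 606 that met both Rnt1 lists the shares were 63.5% and 79.4%. Under 300 bp of width the order at the first base was the other way round, with 4.19% of 453 Rnt1-free peaks and 0 of 44 peaks with Rnt1. From 500 to under 1000 bp, the first base lay under 12.4% of Rnt1-free peaks and 42.2% of peaks with Rnt1, but the genes below had median lengths of 1236 bp for Rnt1-free peaks and 772.5 bp for peaks with Rnt1. At 1500 bp or more, where those lengths were 1782 bp and 1762.5 bp, it lay under 20.8% of Rnt1-free peaks and 57.6% of peaks with Rnt1.

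Peaks of like width were then compared on genes of over 1000 and up to 2000 bp. From 300 to under 500 bp of width, the first base lay under 7.14% of 182 Rnt1-free peaks and 29.4% of 17 peaks with Rnt1, and the last base under 13.7% and 35.3%. From 500 to under 1000 bp the shares were close, with the first base under 7.56% of 225 Rnt1-free peaks and 11.9% of 42 peaks with Rnt1, and the last base under 28.4% and 28.6%. From 1000 to under 1500 bp the first base lay under 6.38% of 94 Rnt1-free peaks and 36.4% of 143 peaks with Rnt1, and the last base under 45.7% and 81.1%. At 1500 bp or more the first base lay under 9 of 45 Rnt1-free peaks and 134 of 213 peaks with Rnt1, and the last base under 25 and 172 of them. The gap was thus present in 3 of the 4 width classes compared on such genes and nearly absent from 500 to under 1000 bp. Peaks under 300 bp were not compared on genes of this length.

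Since the rule asked for an overlap with replicate 2, the 2 Cbp20 lists can be compared only in how much of each peak they shared. A further 595 replicate 1 peaks on coding genes were free of Rnt1 but met no replicate 2 peak and are not among the 1762. Over the Rnt1-free peaks, replicate 2 peaks held 82.2% of their bases and a median of 89.1% of each peak, and 358 peaks (20.3%) lay wholly under replicate 2. The replicate 2 peaks covered under 50% of the width in 115 cases (6.53%). Measured along the gene, the 5′ edge of replicate 2 lay a median of 1 bp upstream of that of replicate 1, with the middle 50% between 49 bp upstream and 46 bp downstream. The 3′ edge lay a median of 18 bp upstream, between 72 bp upstream and 32 bp downstream. Both edges came within 100 bp for 869 peaks (49.3%).

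**Figure D4:**
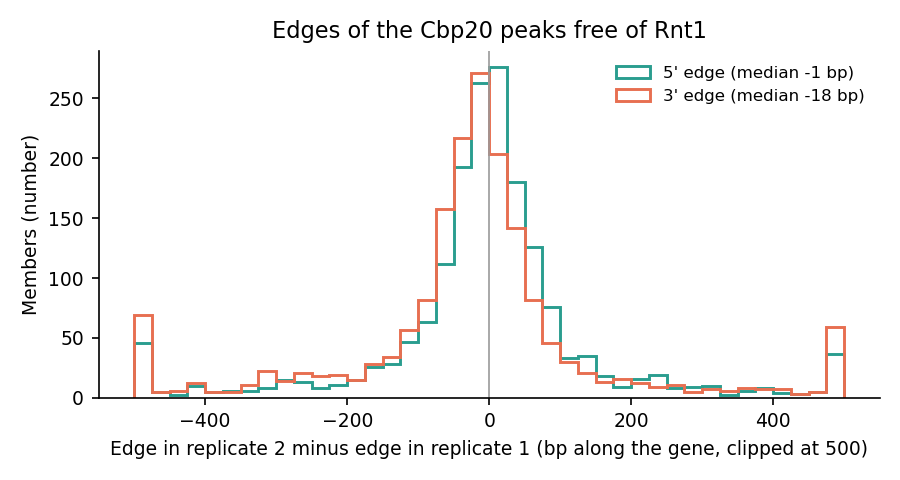
Number of Rnt1-free peaks (vertical axis) by the difference between replicates in the position of the 5′ edge (green) and 3′ edge (orange), in bp along the gene, replicate 2 minus replicate 1, with differences over 500 bp drawn in the outermost bars. Both are centred near 0, the 3′ edge 18 bp to the left.

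At the low end of this agreement, a peak on PMR1, a Golgi calcium pump, shared 4 bp of its 327 bp with replicate 2, a peak on YSP2, a sterol transfer protein, 6 of 211 bp, and a peak on CMP2, a catalytic subunit of calcineurin, 12 of 219 bp. The overlap with a coding gene was as slight for SGF11, of the SAGA deubiquitinase module, with 5 bp of a 220 bp peak in the gene, for the uncharacterised gene YLR157W-D, with 43 of 1247 bp, and for GPI2, of GPI-anchor synthesis, with 50 of 220 bp. The peaks on SGF11, YLR157W-D and GPI2 met the rule but sat mostly beside the gene that admitted them.

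Most Rnt1-free peaks belonged to a single gene. Of the 1762, 1630 (92.5%) touched 1 coding gene, 130 touched 2 and 2 touched 3, and 1183 (67.1%) lay wholly inside 1 gene. Coding genes held 93.9% of their bases, against 87.1% of the bases of peaks with Rnt1. The overlap rule needs only 1 bp, and in 23 of the 1562 genes with an Rnt1-free peak (1.47%) no replicate 2 peak touched the gene itself.

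Where an Rnt1-free peak joined neighbouring genes, these mostly faced each other with their stop codons. Of the 130 peaks on 2 genes, 89 (68.5%) lay on convergent pairs, 36 on tandem pairs and 5 on divergent pairs, while 25.8% of all neighbouring pairs of coding genes are convergent. For 29 of the 130 the annotated genes overlap, among them all 5 divergent cases. Gaps are shorter between convergent genes, with a median of 226 bp against 394 bp for tandem and 505 bp for divergent pairs. Among pairs with a gap of 0 to 300 bp, 72 of 87 Rnt1-free peaks (82.8%) joined convergent genes, which make up 44.5% of all pairs with such gaps. Peaks with Rnt1 that touched 2 genes lay on convergent pairs in 62.3% of cases.

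The stretch between convergent stop codons is shown for the 3 narrowest Rnt1-free peaks that cover both stop codons in both replicates, because it joins both genes under 1 peak. Where the transcripts end was not examined. Of 80 peaks over both stop codons of a convergent pair in replicate 1, 34 covered them in replicate 2 too. The plus strand is given with 30 bases of each reading frame, and capitals mark the stop codons, the right one read from the minus strand.

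YML108W and PML39 (chrXIII:55081-55294): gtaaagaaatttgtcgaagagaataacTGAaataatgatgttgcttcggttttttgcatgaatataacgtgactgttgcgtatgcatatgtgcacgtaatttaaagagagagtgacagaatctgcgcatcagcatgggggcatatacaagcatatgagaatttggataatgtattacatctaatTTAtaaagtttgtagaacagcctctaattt
EMC3 and ADD66 (chrXI:48926-49035): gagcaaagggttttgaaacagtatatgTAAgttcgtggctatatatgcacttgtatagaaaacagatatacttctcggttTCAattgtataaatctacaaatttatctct
TFA2 and LAS1 (chrXI:560623-560818): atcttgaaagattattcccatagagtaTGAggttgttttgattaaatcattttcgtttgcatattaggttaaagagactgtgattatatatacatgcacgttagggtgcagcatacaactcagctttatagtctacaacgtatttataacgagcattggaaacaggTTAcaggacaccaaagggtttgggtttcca

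PML39 encodes a nuclear-pore protein of mRNA retention, EMC3 a subunit of the ER membrane complex, ADD66 a proteasome assembly factor, TFA2 the small subunit of TFIIE and LAS1 an endonuclease of ribosomal RNA processing. The gaps between the stop codons were 154 bp, 50 bp and 136 bp in the order printed, under peaks of 456 bp, 457 bp and 542 bp. The best matching replicate 2 peak ran from 55025 to 55498 on chromosome XIII for YML108W and PML39.

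Rnt1 peaks lay at all distances from the Rnt1-free peaks. The nearest Rnt1 peak of either list was a median of 2406 bp away, 15 bp at the least and 27410 bp at the most. It lay less than 500 bp away for 233 peaks (13.2%) and over 5000 bp away for 493 (28.0%). The median distance was 4060 bp to the 1238 peaks of Rnt1 replicate 1 and 2512.5 bp to the 1741 peaks of replicate 2. Of the 233 near cases, the Rnt1 peak lay on the same gene in 62, on another coding gene in 89, on a tRNA, snoRNA or snRNA gene in 55 and between genes in 27.

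At the limit of the rule, the closest Rnt1-free peaks lay on YRF1-8, 15 bp from an Rnt1 peak of replicate 2, on the Ty gene YDR098C-B, 19 bp from one of replicate 1, and on NRE1, 54 bp from one of replicate 2. They were followed by AGE1, a GTPase activator of vesicle transport, at 73 bp, and YRF1-7, another Y′ helicase gene, at 78 bp. YRF1-8, YRF1-7 and YDR098C-B are members of repeat families. Just outside the rule, peaks shared only 10 bp with Rnt1 replicate 2 on PUS2, a pseudouridine synthase, 45 bp on SMY2, 60 bp on PDR12, a weak-acid exporter, and 68 bp on the Ty gene YGR161C-D, and 51 bp with Rnt1 replicate 1 on RPA190, the largest subunit of RNA polymerase I. In 28 cases (1.59%) the matching replicate 2 peak of an Rnt1-free peak met an Rnt1 peak, so the status of these depends on which Cbp20 list sets the edges. Farthest from Rnt1 were peaks on GGA2, a Golgi clathrin adaptor, at 27410 bp, and on its neighbour CDC12, a septin, at 25735 bp, followed by ABZ1 at 25619 bp, YSP2 at 25075 bp and UBA4 at 24942 bp. GGA2, CDC12 and UBA4 lie in the same stretch of chromosome VIII.

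The rule also keeps out peaks on tRNA, snoRNA and snRNA genes, and the nearest Rnt1-free peak to such a gene lay on SWC5, of the SWR1 complex, 203 bp from LSR1, the U2 snRNA gene. A peak on GAS2, a glucanosyltransferase, lay 239 bp from the tRNA gene TRR4, and a peak on POP1, a subunit of RNase P and MRP, 250 bp from SNR19, the U1 snRNA gene. All 3 also had an Rnt1 peak within 300 bp, at 262 bp from the peak on SWC5, 185 bp from that on GAS2 and 270 bp from that on POP1.

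Counted by gene, 1562 of 6002 nuclear coding genes (26%) carried an Rnt1-free peak, 1197 (19.9%) a replicated Cbp20 peak with Rnt1, 98 both, and 3257 (54.3%) no replicated Cbp20 peak. These shares are the background for the gene groups below and, since the rule made them, are no result in themselves. In the 98 genes with both kinds, the mean centre of the Rnt1-free peaks lay 5′ of that of the peaks with Rnt1 in 72 and 3′ of it in 26. Centres beyond the gene were included, and the order is of Cbp20 peaks and not of Rnt1 peaks. A peak counted for every gene it touched, so the bases shared with Rnt1 could lie off the gene. In RGT2, of both kinds, no Rnt1 peak touched the gene itself. An Rnt1 peak of either list touched 115 (7.36%) of the 1562 genes, outside the Rnt1-free peak. Genes among the 98, such as RPN2 and SSA1, are part of this count. The median share of the gene under Cbp20 peaks was 56.3% in replicate 1 and 51.4% in replicate 2 for genes with an Rnt1-free peak, against 97.1% and 94.5% for genes with a peak with Rnt1. Here and below, the share of a gene covered counts all Cbp20 peaks on it, whether Rnt1-free or not. Only 22 of the 1562 genes were wholly covered in both replicates, against 349 of the 1197.

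Gene groups differed in which kind of Cbp20 peak they carried. Several lists, among them those named next, had a higher share than the 26% of all coding genes. The cytoskeleton list, which holds tubulin genes beside actin and septin genes, had an Rnt1-free peak in 15 of 24 genes (62.5%). The subunits of RNA polymerases I, II and III had one in 17 of 32 (53.1%) and the nucleoporins in 15 of 29 (51.7%). Ergosterol synthesis had one in 12 of 25 (48.0%), the proteasome in 15 of 33 (45.5%) and mitochondrial ribosomal proteins in 32 of 72 (44.4%). At the other end, 0 of 138 cytoplasmic ribosomal protein genes and 0 of 9 core histone genes carried one, while 129 and 9 of them carried a peak with Rnt1, and the 9 other ribosomal protein genes carried only a replicated peak that touched a tRNA, snoRNA or snRNA gene. The lists are small and were not tested. Each share counts all genes of a list, also those with no replicated Cbp20 peak. Such genes made up 54.3% of all coding genes and 0 to 47.2% of the lists named so far. Peaks with Rnt1 were on 19.9% of all coding genes, 57.6% for the proteasome, 48% for ergosterol synthesis and 34.4% for RNA polymerases. For the cytoskeleton, nucleoporins and mitochondrial ribosomal proteins they were on 20.8%, 20.7% and 9.72%. A high share thus need not be particular to Rnt1-free peaks. With the wider 50% of each peak list the shares were 33.3% for the cytoskeleton, 40.6% for RNA polymerases, 41.4% for nucleoporins, 32% for ergosterol synthesis, 69.7% for the proteasome and 20.8% for mitochondrial ribosomal proteins, so the order of the lists depends on which peaks are kept. Several shares rest on the Rnt1 replicate 2 list: without it they were 87.9% for the proteasome, 72.2% for vesicle coats, 58.8% for the vacuolar proton pump, 50% for tRNA synthetases, 18.8% for Hsp70 and Hsp90 chaperones and 11.1% for core histones, but still 0% for cytoplasmic ribosomal proteins. Without Cbp20 replicate 1 they were 66.7% for vesicle coats and 0% for the chaperones.

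**Figure D5:**
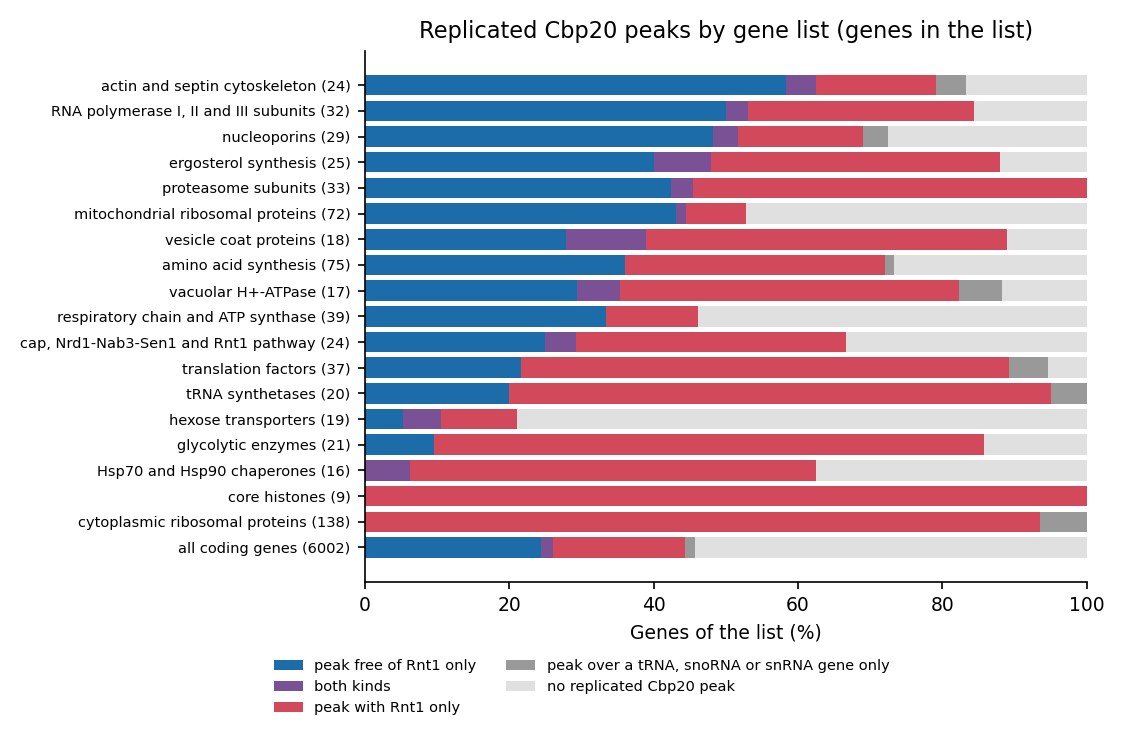
Percent of the genes of each list (horizontal axis, number of genes in brackets) that carried an Rnt1-free Cbp20 peak only (blue), both kinds (purple), a peak with Rnt1 only (red), only a replicated peak over a tRNA, snoRNA or snRNA gene (dark grey) or no replicated Cbp20 peak (light grey). Blue and purple together are 62.5% for the list labelled actin and septin, which also holds tubulin genes. They are 0% for cytoplasmic ribosomal proteins and core histones, against 26% for all coding genes at the bottom.

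Mitochondrial ribosomal proteins, which serve translation inside mitochondria, carried Rnt1-free peaks in 32 genes and peaks with Rnt1 in 7, and 34 of 72 genes had no replicated peak. IMG1 was covered fully in both replicates, MRP20 by 95.3% in replicate 1 and 94.6% in replicate 2, MNP1 by 96.1% and 95.2% and MRPS12 by 91.8% and 98.9%. MRP7 was covered by only 15.2% and 8.78%. IMG2 counted through a peak that reached 28.1% of the gene in replicate 1, while no replicate 2 peak touched it.

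Among proteasome genes, which encode the protease that degrades ubiquitinated proteins, 15 carried an Rnt1-free peak and 19 a peak with Rnt1, and every gene carried a replicated peak. Core particle genes PRE7 and PRE8 were covered by 100% and 88.3% in replicate 1, with 98.6% and 92.4% in replicate 2. Regulatory particle genes RPN6 and RPN11 were covered by 98.9% and 98.8% in replicate 1, with 98.1% and 99.2% in replicate 2. RPN8 showed a wide gap between replicates, at 44.4% in replicate 1 and 1.08% in replicate 2. In RPN2 an Rnt1-free peak of 345 bp lay near the start codon, and Rnt1 peaks covered 5.32% of the gene in Rnt1 replicate 1 and 39.9% in Rnt1 replicate 2 farther 3′.

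RNA polymerase subunits with an Rnt1-free peak came from all 3 enzymes. RPB5, a subunit that the enzymes share, was covered by 100% in replicate 1 and 97.2% in replicate 2, RPB7 of polymerase II by 100% and 84.9%, RPA12 of polymerase I by 100% and 91.3% and RPC19, shared by polymerases I and III, by 91.8% and 98.4%. The genes of the largest polymerase III subunits were covered in part, RPO31 by 37.6% and 34.04% and RET1 by 11.3% and 8.14%. Coverage did not follow gene length throughout the list. RPC31, of 756 bp, was covered by only 25.9% and 28.3%, and RPC37, of 849 bp, by 45.3% and 94.7%. RPB2, of 3675 bp, carried both kinds of peak and was covered by 87.3% and 71.3%.

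The nucleoporin genes, whose products build the nuclear pore, showed the same range. POM33 was covered by 98.1% in replicate 1 and 95.5% in replicate 2 and POM34 by 95.8% and 94.4%, but NUP159 by 15.2% and 14.97% and NUP120 by 9.09% and 11.0%. In the cytoskeleton list TPM1, which encodes tropomyosin, was covered by 95.8% and 97.0%, ARP3, of the branching Arp2/3 complex, by 95.4% and 67.0%, and the formin gene BNI1 by 9.09% and 11.9%. CDC11, a septin gene, had 843 bp under its Rnt1-free peak, of which 26 bp lay under replicate 2.

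Ergosterol synthesis had Rnt1-free peaks in 12 of 25 genes and peaks with Rnt1 in 12, with both in 2. ERG27 was covered by 97.5% in replicate 1 and 100% in replicate 2, and ERG2 by 95.1% and 82.2%. HMG1 and HMG2, the genes of HMG-CoA reductase, were covered by 21.4% and 16.8% in replicate 1, with 25.0% and 9.72% in replicate 2. Amino acid synthesis had Rnt1-free peaks in 27 of 75 genes, peaks with Rnt1 in 27 and no gene with both. There ILV6 was covered by 100% and 99.4%, THR1 by 95.5% and 93.8%, and the long gene ARO1 by 17.1% and 31.8%.

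The lists of glycolysis, chaperones and hexose uptake had lower shares than the 26% of all coding genes, and the translation lists were nearer to it. Glycolysis had them in 2 of 21 genes, TDH1 and HXK1, and peaks with Rnt1 in 16. TDH1, a minor glyceraldehyde-3-phosphate dehydrogenase gene that shares sequence with TDH2 and TDH3, was covered by 83.4% in replicate 1 and 86.3% in replicate 2, and HXK1 by 72.1% and 17.7%. The Rnt1-free peak on HXK1 held 676 bp of the 1051 bp covered in replicate 1. Translation factors had them in 8 of 37 genes (21.6%), with TIF35 of initiation factor eIF3 at 100% and 94.9% and TIF11, which encodes eIF1A, at 94.2% and 91.8%, and peaks with Rnt1 in 25. The tRNA synthetases had 4 of 20, with HTS1 at 95.4% and 94.3%, against 15 with Rnt1. Among the chaperones of the Hsp70 and Hsp90 families, SSA1 alone of 16 had one, beside Rnt1 peaks that covered 70.9% and 75.01% of the gene in Rnt1 replicates 1 and 2. SSA1 is nearly identical to SSA2, so its value is uncertain. Of the hexose transporters, 2 of 19 had one, HXT2 and RGT2, and 15 had no replicated peak. Cbp20 peaks of any kind covered 89.2% and 85.4% of HXT2 and 31.4% and 44.7% of RGT2. In RGT2 the Rnt1-free peak held only 148 bp of the 2292 bp of the gene, which also carried a peak with Rnt1.

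Other lists lay between these. The vacuolar proton pump had Rnt1-free peaks in 6 of 17 genes, with VMA16 covered by 100% in replicate 1 and 98.0% in replicate 2. The respiratory chain and ATP synthase had 13 of 39, with COX5A at 100% in each replicate, but no replicate 2 peak touched QCR7 or ATP19, which counted through a peak shared with a neighbour. Vesicle coats had 7 of 18, SEC26 and SEC13 among them, SEC13 at 96.8% and 76.8%.

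The genes of the cap-binding and Rnt1 pathways themselves were looked at as a list of 24, of which 7 carried an Rnt1-free peak (29.2%), 10 a peak with Rnt1 and 8 no replicated peak. CBC2, which encodes Cbp20, was covered by 73.5% in replicate 1 and 36.8% in replicate 2, and STO1, which encodes Cbp80, by 20.4% and 15.99%. STO1 is the gene that carries the myc tag in the listed genotype of these libraries. TGS1, which trimethylates the caps of snoRNAs, had 2 Rnt1-free peaks and was covered by 63.7% and 55.3%. NOP10 and GAR1, of the box H/ACA snoRNPs, were covered by 93.8% and 100% in replicate 1, with 98.3% and 94.98% in replicate 2. RRP6, of the nuclear exosome, was covered by 25.1% and 39.2%, and DCP2, of decapping, carried both kinds of peak.

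Sequence under the Rnt1-free peaks was searched for the loop that Rnt1 binds. A hairpin was taken as at least 6 base pairs, G-U pairs included, closing a loop of 4 bases that reads AGNN, on the coding strand. It was present in 175 of the 1762 Rnt1-free peaks (9.93%), at 0.185 per kb, against 0.180 per kb in peaks with Rnt1. In windows of 300 bp cut from the peaks, 72 of 1309 windows of Rnt1-free peaks held one (5.50%, exact 95% binomial interval 4.33 to 6.88), against 43 of 984 from peaks with Rnt1 (4.37%, 3.18 to 5.84) and 1333 of 26609 from all coding genes (5.01%, 4.75 to 5.28). Windows cut from 1 peak share their source and all coding genes include both kinds of peak, so the intervals cover counting error only. The 5 hairpins with the longest stems under Rnt1-free peaks are printed to show matches without an Rnt1 peak on them, with the AGNN loop in capitals.

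GLC7 (chrV:433014-433039, plus strand): ttttttttttgAGCCcgagagaaagg
NUP170 (chrII:75511-75534, plus strand): aacatgaatgAGCAcattcgtgtt
YJR015W (chrX:464188-464211, plus strand): tttgttggcaAGTAtgctagtaga
YLR278C (chrXII:703931-703954, minus strand): gtaacaggacAGACgtcttgttgc
RRP5 (chrXIII:730251-730274, minus strand): attgctaagaAGGAttttggcaat

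The stem had 11 pairs in GLC7, which encodes the catalytic subunit of protein phosphatase 1, and 10 in NUP170, YJR015W, YLR278C and RRP5, a gene of ribosomal RNA processing. The nearest Rnt1 peaks to the Rnt1-free peaks that hold these hairpins lay 361 bp away for GLC7, 209 bp for NUP170, 216 bp for YJR015W, 358 bp for YLR278C and 1424 bp for RRP5. A match of letters is not a site of cleavage.

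Short motifs of the Nrd1-Nab3 complex, which ends the transcription of snoRNA genes, were counted on the coding strand of the same 300 bp windows. GTAG, bound by Nrd1 as RNA, came to 2.20 per kb under Rnt1-free peaks, 1.77 under peaks with Rnt1 and 1.89 in all coding genes, and GTAA, its other form, to 3.31, 3.18 and 3.24. TCTT, bound by Nab3, came to 4.80 per kb under Rnt1-free peaks, 5.73 under peaks with Rnt1 and 4.86 in all coding genes, and CTTG to 3.54, 3.89 and 3.15. GTAG was present in 45.8% of windows under Rnt1-free peaks, 42.3% under peaks with Rnt1 and 42.3% in all coding genes, and TCTT in 72.7%, 78.4% and 73.9%. The median GC content of the windows was 41.7% for both kinds of peak and 39.3% for all coding genes.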

How the data were processed

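The authors deposited, for each ChIP-seq library, a list of peak positions (chromosome, start and end, in bp), with no count, score or signal. Per the study's methods, read pairs were aligned to sacCer3 with Bowtie2, uniquely mapped reads of mapping quality of at least 30 were kept, and peaks called by MACS2 with a q-value below 0.05 were retained. Each library has its own list, and how those of the second replicates were called is not given in the sources used here. Unique mapping limits what can be called in repeats, and a deeper library can give more and wider peaks. Depth is unknown.

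Overlaps of at least 1 bp, positions along genes and motif counts were computed with Python 3.11.15, numpy 2.4.6 and scipy 1.17.1 (binomial intervals), and figures with matplotlib 3.10.9, on the R64 genome and annotation of RefSeq, which has the same chromosomes. A peak on several genes was placed on the one with the most shared bases. The membership and hairpin rules were tested on simulated data. Libraries were grouped from their labels, which number only the second replicate of each protein.

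Named genes are the widest and narrowest peaks, genes with the most bases or peaks, peaks nearest to and farthest from Rnt1, those just inside or outside each limit, the longest hairpins and the genes of 18 lists. The members and lists were chosen with earlier results of these data known. RPP1, GCD10 and GCD14, caught by name but of other function, were taken out of their lists after the counts had been seen. The 7 RNA-seq samples were not used here. The alternatives were other overlap limits, wider peaks, each list left out, replicate 2 positions, single-gene peaks and other hairpin stems.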

Additional observations from a re-analysis of the deposited data

How the results depend on the processing

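No paired analysis was possible because no result comes from a test. Leaving out 1 of the 4 lists gave 1781 to 2357 Rnt1-free peaks and 1584 to 1939 genes, centres at 51.4 to 53.3% of the gene, the first base covered in 7.30 to 13.3% and the last in 15 to 28.2%, the lowest without Cbp20 replicate 1. The differences between Rnt1-free peaks and peaks with Rnt1 were then -48.8 to -35.8 percentage points at the first base and -50.5 to -38.7 at the last. The wider 50% of each list gave 866 peaks on 972 genes, centres at 54.7%, the first base in 18.9% and the last in 44.0%, and differences of -43.9 and -34.5 points. Replicate 2 positions gave 51.5%, 8.68% and 17.6%, with differences of -35.8 and -37.3 points, and peaks on 1 gene a centre at 51.2% and -34.9 points at the first base. With Rnt1 kept 500 bp away the differences were -32.5 and -34.7 points. For peaks on genes of over 1000 and up to 2000 bp, an alternative chosen after seeing the data, they were -22.3 and -21.6 points from 300 to under 500 bp of width, -4.35 and -0.13 points from 500 to under 1000 bp, -30.0 and -35.4 points from 1000 to under 1500 bp and -42.9 and -25.2 points at 1500 bp or more. No difference changed sign under these alternatives, but peaks under 300 bp were not among those compared on genes of like length. Every alternative kept a split by Rnt1 positions, so the constant sign is no independent support. Over all gene lengths, peaks under 300 bp covered the first base in 4.19% of Rnt1-free peaks and 0% of peaks with Rnt1. Of 144 shares of gene lists under alternatives, 12 lay outside the binomial interval of the share reported. These intervals are wide for small lists, so a share inside one can still have moved far. For the vacuolar proton pump, 35.3% and 58.8% without Rnt1 replicate 2 is such a case. AGNN hairpins came to 0.499 per kb with stems of 5 pairs, 0.0680 with 7 and 0.0253 with Watson-Crick pairs alone. Without scores or depth, weak occupancy cannot be told from none.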

Other observations

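Rnt1-free peaks were present on all 16 chromosomes, at 11.5 per 100 kb on chromosome VI to 17.1 on chromosome VIII. They were sparse near chromosome ends: 47 of 389 coding genes within 30 kb of an end (12.1%) carried one, against 31 with a peak with Rnt1 and 311 (79.9%) with no replicated peak, and many genes there belong to repeat families. Genes with an intron made up 2.82% of genes with an Rnt1-free peak (44 of 1562), against 9.02% of genes with a peak with Rnt1 and 4.52% of all coding genes. Cytoplasmic ribosomal protein genes, of which 129 of 138 carried a peak with Rnt1 and 0 an Rnt1-free peak, were not set apart in this count. Genes without a symbol made up 6.66% of genes with an Rnt1-free peak, against 10.6% of genes with a peak with Rnt1 and 12.4% of all coding genes. In 21 cases the Rnt1-free peak overlapped a Ty element, a retrotransposon with many near-identical copies, so its place is uncertain, and in 25 it lay over an intron. By gene length, 18.7% of genes up to 500 bp carried an Rnt1-free peak, against 26.0 to 27.9% of genes in the longer classes. These values were not tested.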
